A study of Mus musculus with 6 samples.

Results

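The H3K27ac peaks over 4 melanosome genes, Pmel, Mlana, Gpnmb and Gpr143, were compared between low pigment (LP) and high pigment (HP) B16 F10 cells, 2 replicates each. Peaks of the 4 libraries that fell on a gene or within 20 kb on either side of it were taken, and overlapping peaks were merged into regions. This gave 72 regions out of 182956 in the genome, 19 at Pmel, 13 at Mlana, 35 at Gpnmb and 5 at Gpr143. Of these, 26 overlapped a promoter, defined as the 3 kb on either side of any annotated transcription start site (TSS), and 46 did not. The rule used the gene names and no H3K27ac value.

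B16 F10 is a mouse melanoma line, which the labels also describe as melanocytes. The cells were plated sparsely, at 100 cells per cm2, and taken at day 5 of the progressive pigmentation model, in which pigment builds up during culture. LP and HP cells were separated from a common culture by side scatter in a flow cytometer, so the groups are gates on a light scatter signal and not on the proteins of these genes. No genotype, drug or other treatment separated them. IgG libraries from unsorted cells, 1 per replicate number, served as the authors' controls. The labels do not say whether the replicates were separate cultures, so p-values measure the spread between these libraries, which may be technical.

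H3K27ac, acetylation of lysine 27 on histone H3, is found at active promoters and enhancers. PMEL is cleaved into fragments that assemble the amyloid fibrils on which melanin is laid down inside the melanosome, and MLANA (MART-1) is a small membrane protein that binds PMEL and is needed for its maturation. GPNMB is a transmembrane glycoprotein related to PMEL, and GPR143 (OA1) is a G protein-coupled receptor of the melanosome membrane whose loss causes ocular albinism. MITF, the master regulator of melanocytes, binds E-boxes such as CACGTG and its variant CATGTG, and SOX10 binds sites of the ACAAAG type.

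The sequences under the main elements are given first, because the values below refer to them. They were read from the RefSeq assembly GRCm38 (mm10). Promoters came from the RefSeq promoter table, where Gpnmb and the Pmel neighbour Cdk2 were matched and Pmel, Mlana and Gpr143 were not. The Cdk2 sequence ends before the Pmel transcript that starts at 128705180. Each other sequence spans the 100 bases on either side of the highest H3K27ac summit of an element. Capitals mark exact matches, on either strand, to the E-box CACGTG, to the SOX motif ACAAAG or to the GC box GGGCGG, a kind bound by SP1. The other motifs searched were the E-box variant CATGTG, the longer forms TCACGTG (which contains the first E-box) and also TCATGTG (which contains its variant), the M-box, the LEF motif CTTTGAT and the TATA box TATAAA.
Cdk2 promoter, on the Pmel side of the shared region, chr10:128705052-128705179, minus strand: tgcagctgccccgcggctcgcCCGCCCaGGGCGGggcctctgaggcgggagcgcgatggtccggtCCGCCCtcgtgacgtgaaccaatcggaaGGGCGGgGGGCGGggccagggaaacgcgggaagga
Gpnmb promoter, chr6:49036268-49036517, plus strand: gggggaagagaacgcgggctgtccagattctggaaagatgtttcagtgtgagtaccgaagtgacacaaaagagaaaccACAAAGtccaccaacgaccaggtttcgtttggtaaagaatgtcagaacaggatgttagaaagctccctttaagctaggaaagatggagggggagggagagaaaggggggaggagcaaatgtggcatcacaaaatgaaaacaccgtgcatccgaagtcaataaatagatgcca
Gpnmb element at -8.0 kb, chr6:49028484-49028684, plus strand: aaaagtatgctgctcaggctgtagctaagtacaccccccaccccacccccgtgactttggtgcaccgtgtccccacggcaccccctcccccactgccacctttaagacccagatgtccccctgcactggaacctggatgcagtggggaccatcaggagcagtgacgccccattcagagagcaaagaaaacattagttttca
Gpnmb element at -15.4 kb, chr6:49021077-49021277, plus strand: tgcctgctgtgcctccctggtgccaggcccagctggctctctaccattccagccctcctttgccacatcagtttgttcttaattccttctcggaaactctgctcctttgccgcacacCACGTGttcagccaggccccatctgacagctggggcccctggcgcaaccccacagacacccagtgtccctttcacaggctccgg
Mlana intron 2 element, chr19:29703635-29703835, plus strand: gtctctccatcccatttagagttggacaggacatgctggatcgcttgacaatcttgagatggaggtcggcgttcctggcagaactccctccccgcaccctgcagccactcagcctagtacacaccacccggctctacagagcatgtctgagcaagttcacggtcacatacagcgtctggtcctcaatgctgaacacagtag
Pmel intron 1 element, chr10:128709970-128710170, plus strand: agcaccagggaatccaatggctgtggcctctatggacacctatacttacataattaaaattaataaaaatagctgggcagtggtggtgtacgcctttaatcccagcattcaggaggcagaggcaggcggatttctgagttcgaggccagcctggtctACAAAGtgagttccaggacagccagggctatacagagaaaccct

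The Cdk2 sequence held 5 matches to GGGCGG, which occurred in 35.7% of 32851 RefSeq promoter windows running from 250 bases before to 50 bases after the start. The Gpnmb promoter held 1 ACAAAG (18.7% of those promoters). The -15.4 kb Gpnmb element held 1 CACGTG, found around the summits of 4.96% of 2016 non-promoter regions called in all 4 libraries. The -8.0 kb Gpnmb and Mlana intron 2 elements held no match to any of the 9 motifs searched. The Pmel intron 1 element had 1 ACAAAG, and 78.1% of its 201 bases lay in letters that the assembly masks as repeats. The Mlana promoter summit window, not printed, held 2 CATGTG, 1 of them as TCATGTG. The matches describe letters and are not evidence of binding. Over the summits of all 72 regions, of which 26 are promoter regions, CATGTG occurred at 9 (12.5%), against 5.22% of all shared regions and 11.5% of the shared non-promoter regions. CACGTG occurred at 3 (4.17%), against 3.98% and 4.96%, and ACAAAG at 14 (19.4%), against 8.23% and 14.9%. These sets are not alike, since 44 of the 72 regions were called in 1 library and the shared regions in all 4. Among the 11 of the 72 called in all 4 libraries, each of these motifs occurred at 1 (9.09%). The percentages of the 72 therefore do not show an excess of any motif. The 11-base M-box occurred at 0 of the 72, against 0.0992% of the shared non-promoter regions.

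The level of a region in a library was the number of fragments that covered its highest summit, per 1000000 fragments of the library (scaled pileup). Libraries held 11467942 and 15353176 fragments in LP and 11483830 and 14254904 in HP. HP levels were above LP levels across the regions with a value in every library. Over the 12084 regions called in all 4 libraries the HP to LP ratio had a median of 0.92 on the log2 scale, 99.0% of these ratios of means were above 0, and the median was 0.57 in replicate 1 and 1.30 in replicate 2. HP replicate 2 stood apart, with a median 0.67 above HP replicate 1 on the log2 scale. Ratios at the 4 genes are therefore also given after every library was centred on its own median. The melanocyte identity of the cells was checked on markers. Of 8, which include Pmel and Mlana, 5 had a peak within 1 kb of a TSS in all 4 libraries. Kit had one in LP replicate 2 alone, at 0.847. All marker values use this distance, which is narrower than the 3 kb that defines a promoter elsewhere. Mlana and Tyrp1 had such a peak in 3 libraries, while their promoter regions at 3 kb were called in all 4. The summed scaled pileup of the 8 was 9.85 and 11.1 (LP) against 20.5 and 30.9 (HP). Of 4 keratinocyte and 5 leukocyte markers, 3 each had no peak in any library, and the 2 sums were 0 in every library but HP replicate 2, at 0.491 and 1.61. Summed fibroblast markers were at 1.48 and 1.30 (LP) against 2.09 and 2.03 (HP). Each of the 4 fibroblast markers had a peak in some library, and none was called in all 4 libraries. The part of other cells in the results was not tested. In sorted pools, a larger share of marked cells and more acetylation per cell cannot be told apart. A difference between the libraries in how well acetylated chromatin was recovered cannot be told apart from these either, and was not tested.

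Peaks covered more of the 4 windows in both HP libraries than in either LP library. Peaks numbered 22 and 37 (LP) against 47 and 47 (HP), and they covered 10717 and 22956 bp (LP) against 31071 and 49926 bp (HP), a 2.41-fold ratio of the sums. Within replicates the ratio was 2.90-fold in replicate 1 and 2.17-fold in replicate 2. Over the whole genome the ratio of the covered lengths was 1.54-fold (1.69-fold and 1.45-fold in replicates 1 and 2), and the ratio of the peak numbers was 1.09-fold against 1.59-fold in the windows. HP peaks were thus also wider over the genome, and the difference between the windows and the genome was not tested. The genome totals separated as well, at 18896589 and 30271314 bp (LP) against 31854067 and 43930217 bp (HP). The covered length was likewise higher in both HP than in both LP libraries in all 4 windows, which include promoters of neighbouring genes. The HP values were 8211 and 13366 bp at Pmel against 3283 and 5262 in LP. They were 6629 and 10273 against 984 and 2874 at Mlana, and 14610 and 23827 against 5383 and 13294 at Gpnmb. At Gpr143 they were 1621 and 2460 against 1067 and 1526. The Gpr143 promoter regions alone overlapped, at 574 and 371 bp (LP) against 503 and 933 (HP), and the Shroom2 promoter took 493 and 871 against 922 and 1527. Mlana non-promoter regions overlapped too, at 593 and 1166 (LP) against 543 and 2547 (HP). Promoter regions took 7809 and 13818 bp (LP) against 21024 and 33672 (HP), and non-promoter regions took 2908 and 9138 bp (LP) against 10047 and 16254 (HP). These lengths are given as a description and were not tested. With 2 libraries against 2, the smallest two-sided exact permutation p is 0.333. The peak count at Gpr143 did not separate, at 3 and 4 (LP) against 3 and 3 (HP).

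**Figure D1:**
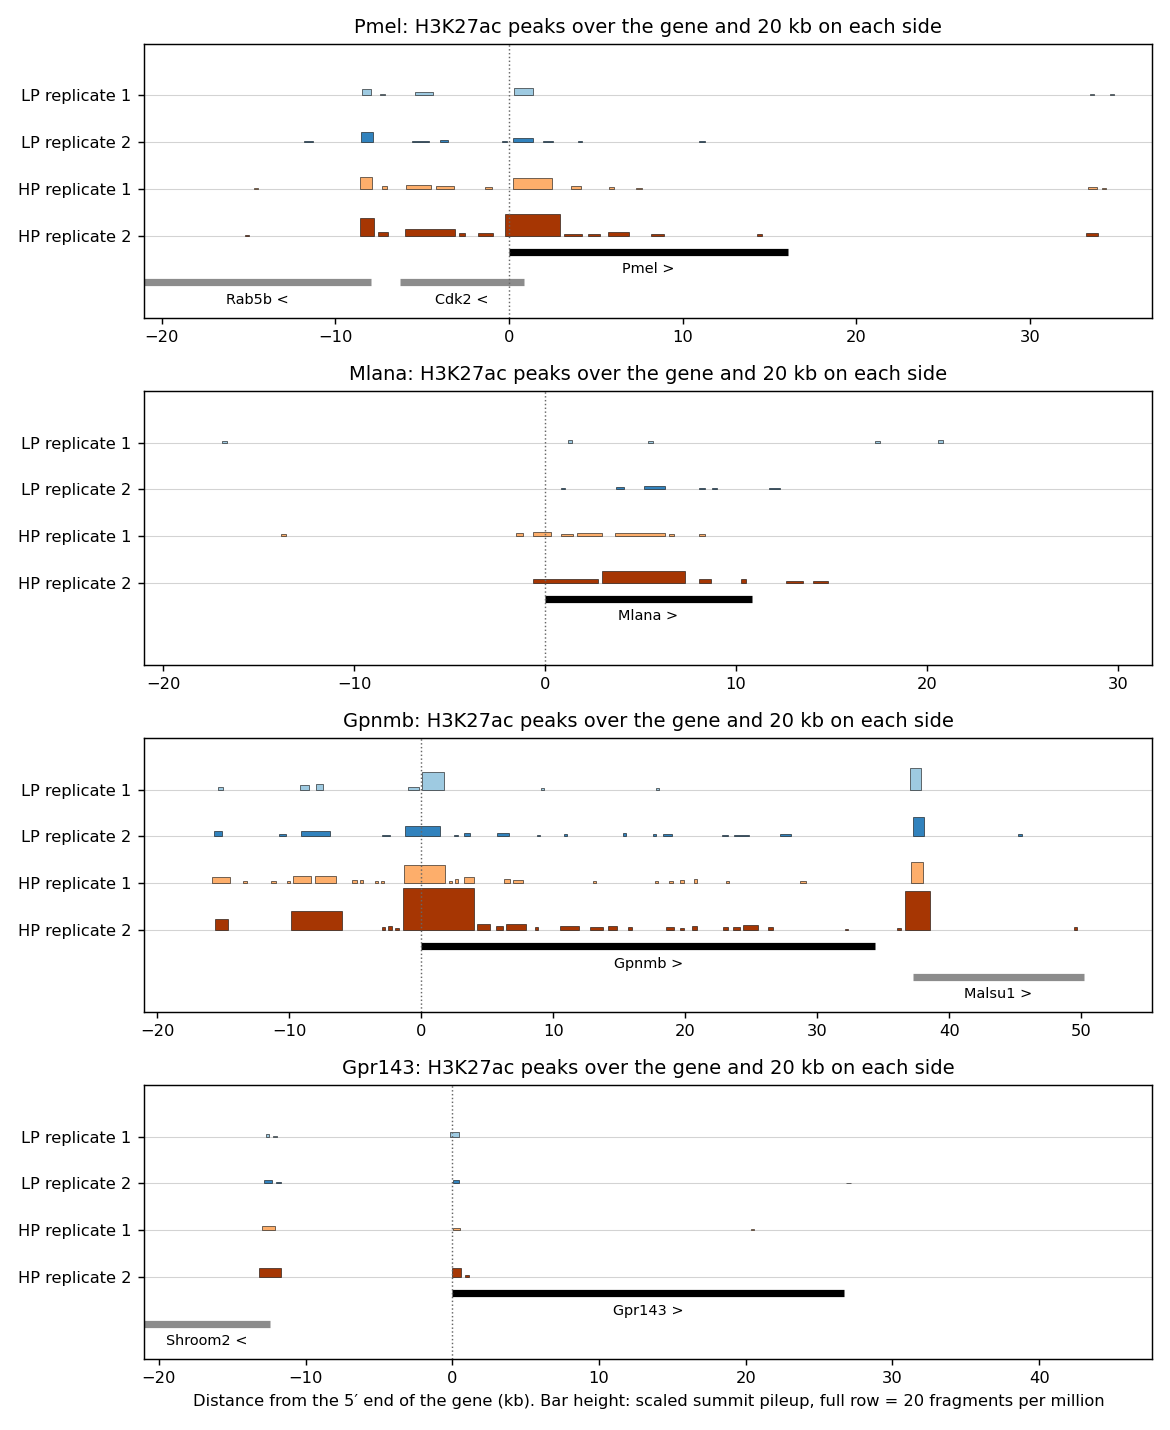
H3K27ac peaks of each library over the 4 genes and 20 kb on each side. The horizontal axis is the distance from the 5′ end of the gene in kb, each bar spans 1 peak, and its height is the scaled pileup at the summit (a full row is 20 fragments per 1000000). Black bars mark the genes and grey bars their neighbours, and HP replicate 2 shows the widest peaks, covering 23827 bp at Gpnmb.

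**Figure D2:**
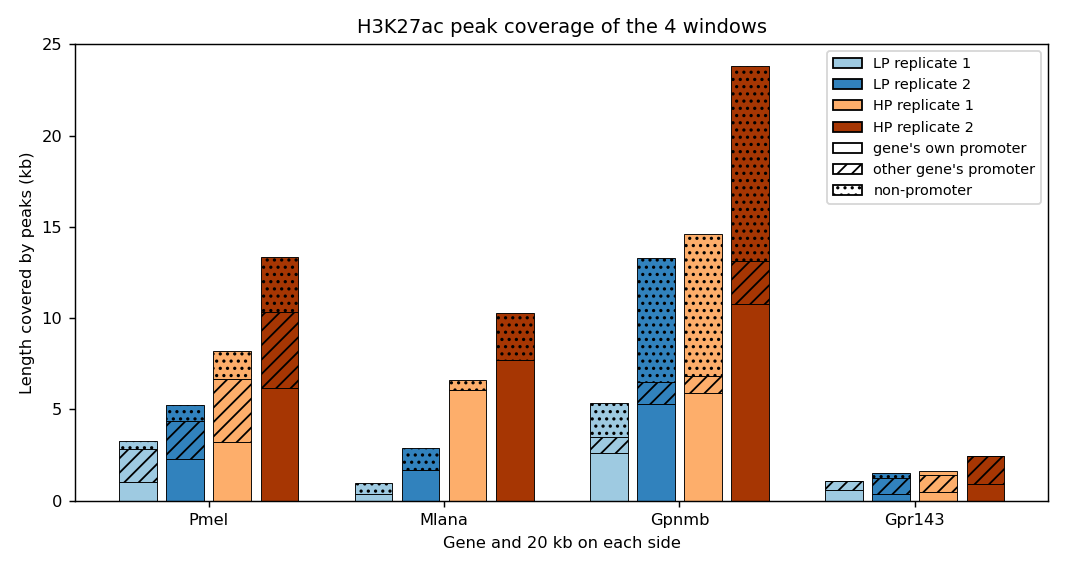
Length covered by peaks (kb) in each window and library, stacked by class of region (plain, promoter of the gene itself; hatched, promoter of another gene; dotted, non-promoter). In total height, promoters of neighbours included, both HP bars exceed both LP bars in all 4 windows, with LP replicate 1 lowest in each.

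Of the 72 regions, 11 were called in all 4 libraries, against 6.6% of all regions, 9 of them at promoters and 2 at non-promoter elements, both upstream of Gpnmb. In 9 of these 11 both HP values exceeded both LP values, against 74.8% of the 12084 shared regions, so the share was close to the background, and in 0 of 11 both lay below, against 0.141%. Covered length was higher in both HP libraries in 9 of the 11, against 61.3%. In the limma fit over all shared regions, 0 of the 11 passed a Benjamini-Hochberg adjusted p of 0.05, against 4.01% of all regions higher in HP and 0 lower. The model with a replicate block also called 0 of 11, against 0.728% of all regions. At an unadjusted p under 0.05, 5 of the 11 were higher in HP, against 36.2% of all regions. The median log2 ratio of the 11 was 1.00, and -0.0064 after centring, when 5 were above 0. Over all regions the medians were 0.92 and -0.09. Leaving out HP replicate 1 raised the count to 7 of 11, with 57.3% of all regions then called. Leaving out any of the other libraries gave 0 of 11 and 0 calls in the genome. Replicate 2 gave a higher ratio than replicate 1 in 10 of the 11 regions.

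**Figure D3:**
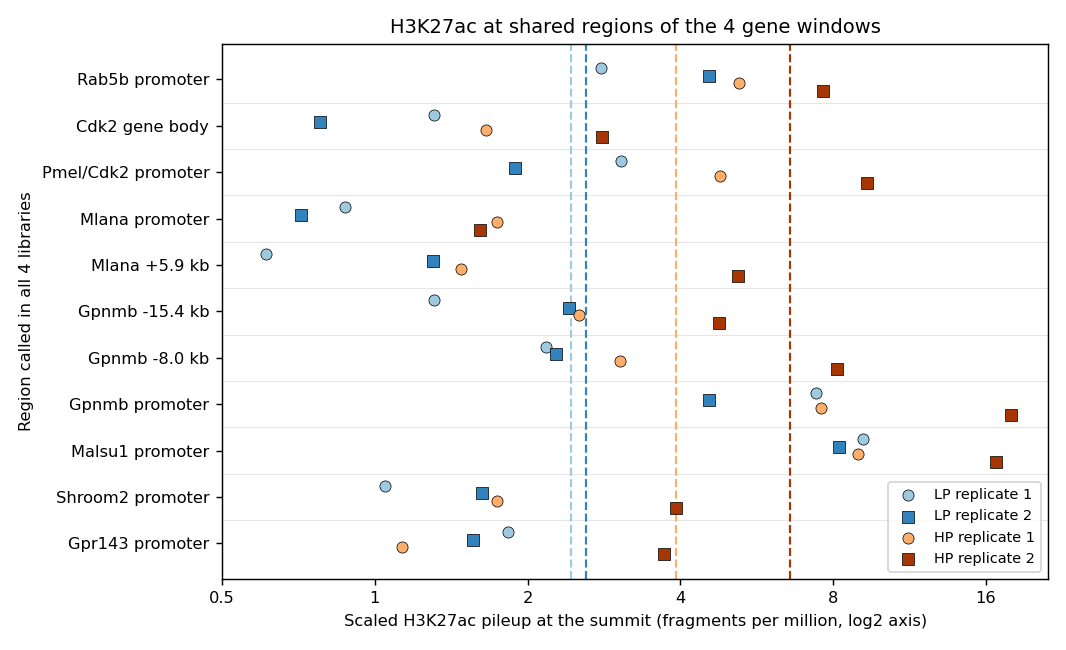
Scaled H3K27ac pileup, in fragments per 1000000 on a log2 axis, of the 11 regions called in all 4 libraries, with 1 point per library. Dashed lines give each library's median over all 12084 shared regions, and distances in kb are from the 5′ end of the gene. HP and LP points overlap at the Gpr143 and Malsu1 promoters and separate at the other 9 regions.

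Pmel had the largest promoter difference of the 4 genes, at a region it shares with Cdk2, the cyclin-dependent kinase of the G1/S transition. The region, chr10:128703772-128707111 (3340 bp), held all 3 annotated starts of Pmel (chr10:128704195-128720238, plus strand) and those of Cdk2 on the minus strand, whose 5′ end is at 128705031. The scaled pileup was 3.05 and 1.89 (LP) against 4.79 and 9.33 (HP), from 35 and 29 against 55 and 133 fragments. Both HP values were above both LP values, with HP replicate 2 the highest. The log2 ratio was 1.48 (95% interval 0.41 to 2.54), with a limma adjusted p of 0.0706, or 0.47 after centring. It exceeded the ratio of 90.8% of all shared regions. Replicate 1 gave 0.65 and replicate 2 gave 2.30. Without HP replicate 1 the ratio was 1.96, and without HP replicate 2 it was 1.00.

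The summits of this shared region lay among the Cdk2 and Pmel starts, nearest to that of Cdk2. The highest summits of LP replicates 1 and 2 and HP replicates 1 and 2 were 144, 368, 121 and 168 bp inside Cdk2 from its 5′ end, and the highest of them, that of HP replicate 2, fell in a Cdk2 exon and in Pmel intron 1. The Pmel start at 128705180 lay 293, 517, 270 and 317 bp from the same summits, and the start at 128704195 lay 692, 468, 715 and 668 bp from them. The Pmel transcript that starts at 128706258 and runs to the 3′ end of the gene begins 1371, 1595, 1348 and 1395 bp from those summits. LP replicate 2 alone had separate minor summits, 1 of them 381 bp inside that transcript with 11 fragments. The peaks cannot assign the acetylation to one gene or the other. Covered length in the region was 1051 and 2042 bp (LP) against 2230 and 3130 bp (HP).

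Beyond the shared promoter, Pmel had no element called in all 4 libraries in its own body. The region chr10:128709912-128711105 in intron 1, whose sequence is printed above, was called in both HP libraries and in neither LP library, at 0.871 and 1.47 (10 and 21 fragments). A second such region, chr10:128702422-128703279, lay in a Cdk2 exon at 0.871 and 1.12 (10 and 16 fragments). Another intron 1 region, chr10:128707339-128708423, was called in LP replicate 2 at 0.716 and in HP at 1.39 and 0.912, and was not called in LP replicate 1. A missing peak means that the region did not reach the authors' threshold. The lowest pileup listed in LP was 5 and 6 fragments, or 0.436 and 0.391 per 1000000.

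The neighbours of Pmel had ratios near the median of all regions. The Rab5b promoter (an endosomal GTPase) was at 2.79 and 4.56 (LP) against 5.22 and 7.65 (HP), a log2 ratio of 0.83 with adjusted p = 0.214 (limma). The region over the Cdk2 gene body, counted as promoter through its distance to a Rab5b start, was at 1.31 and 0.782 (LP) against 1.65 and 2.81 (HP), a log2 ratio of 1.09 with adjusted p = 0.131 (limma). Relative to the shared Pmel/Cdk2 promoter this Cdk2 body region stood at 0.429 and 0.414 (LP) against 0.345 and 0.301 (HP), a log2 difference of -0.39 (exact permutation p = 0.333, the smallest possible).

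Mlana showed the weakest promoter signal of the 4 genes in LP and a wide HP domain that reached into the gene body. Its promoter region, chr19:29697213-29700793 (3581 bp), was at 0.872 and 0.716 (LP) against 1.74 and 1.61 (HP), from 10, 11, 20 and 23 fragments. All 4 values were low, and both HP values of the scaled pileup lay above both LP values. The log2 ratio was 1.08 (95% interval 0.02 to 2.15) with adjusted p = 0.133 (limma), it was near 0 after centring (0.07), and the replicates gave 1.00 and 1.17. These values were the nearest to each other between replicates among the promoters of the 4 genes. In the authors' fold enrichment over background the groups overlapped, at 6.38 and 4.45 (LP) against 10.0 and 6.08 (HP). The log2 ratio of the fold enrichment was 0.55.

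The LP and HP peaks at Mlana differed in position as well as height. The gene starts at 29697824 on the plus strand (chr19:29697824-29708634). The LP summits lay 1289 and 936 bp downstream, in intron 1, with peaks 200 and 218 bp wide. In HP replicate 1 the highest summit was 223 bp upstream of the start, with lower ones 1234 and 1836 bp downstream, and in HP replicate 2 a single 3399 bp peak had its summit 271 bp downstream. LP replicate 1 thus had no peak within 1 kb of the start, and the peaks in HP covered 2887 and 3399 bp of the region. The summit level of the region therefore compares different positions in LP and HP.

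The Mlana intron 2 element, whose sequence is printed above, had the highest ratio of scaled pileup among the 11 shared regions. It spanned chr19:29700818-29705144 (4327 bp) with its summit 5911 bp downstream of the start, and it counted as promoter only because its edge fell within 3 kb. The scaled pileup was 0.610 and 1.30 (LP) against 1.48 and 5.19 (HP), from 7, 20, 17 and 74 fragments. HP replicate 2 was far above the other libraries, and HP replicate 1 lay just above LP replicate 2. The log2 ratio was 1.64 (95% interval 0.57 to 2.70) with adjusted p = 0.0520 (limma), or 0.63 after centring, and it exceeded the ratio of 95.03% of all shared regions. Without HP replicate 1 the ratio was 2.54, and without HP replicate 2 it was 0.73. It was 1.09 without LP replicate 1 and 2.18 without LP replicate 2. Covered length was 191 and 1490 bp (LP) against 2852 and 4327 bp (HP). In the authors' fold enrichment the groups overlapped, at 4.64 and 8.48 (LP) against 6.04 and 34.0 (HP). The log2 ratio of the fold enrichment was 1.19 (limma adjusted p = 0.579), below the 1.61 of the Pmel promoter on the same measure.

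Relative to the Mlana promoter the intron 2 element stood at 0.70 and 1.82 (LP) against 0.85 and 3.22 (HP). The element exceeded the promoter in both replicate 2 libraries and lay below it in both replicate 1 libraries. The HP minus LP difference was 0.55 on the log2 scale (exact permutation p = 0.667). Further along, an intron 3 region (chr19:29705858-29706498) was called in LP replicate 2 at 0.651 and in HP at 0.784 and 1.54. The other 10 regions of the Mlana window were each called in 1 library.

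Gpnmb had the strongest promoter of the 4 genes in every library. The region, chr6:49035118-49040498 (5381 bp), was at 7.41 and 4.56 (LP) against 7.58 and 18.0 (HP), from 85, 70, 87 and 256 fragments. HP replicate 1 hardly exceeded LP replicate 1, and HP replicate 2 was the highest of the 4. The log2 ratio was 1.00 (95% interval -0.06 to 2.07) with adjusted p = 0.152 (limma), and -0.0064 after centring. Replicate 1 gave 0.03 and replicate 2 gave 1.98. Without HP replicate 1 the ratio was 1.63, and without HP replicate 2 it was 0.38. Among all shared regions, the promoter ranked above 86.6% and 77.7% of regions in LP and above 79.8% and 94.3% in HP.

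The Gpnmb promoter peak had nearly the same summit in every library. The summits lay at 49036783, 49036766, 49036775 and 49036778 in LP replicates 1 and 2 and HP replicates 1 and 2, in an exon 220 to 237 bp downstream of the 5′ end of the gene (chr6:49036546-49070929, plus strand), downstream of the promoter sequence printed above. The width differed, with 2450 and 3362 bp covered in LP and 4301 and 5373 bp in HP.

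Upstream of Gpnmb lay the 2 non-promoter elements of the 4 windows that were called in every library, both between genes. The -8.0 kb element, chr6:49026679-49030536 (3858 bp), was at 2.18 and 2.28 (LP) against 3.05 and 8.14 (HP), a log2 ratio of 1.16 (95% interval 0.10 to 2.22) with adjusted p = 0.119 (limma), or 0.15 after centring. The -15.4 kb element, chr6:49020663-49022004 (1342 bp), was at 1.31 and 2.41 (LP) against 2.53 and 4.77 (HP), a log2 ratio of 0.97 (95% interval -0.10 to 2.03) with adjusted p = 0.164 (limma), or -0.044 after centring. At both, HP replicate 2 was the highest library, and at the farther one HP replicate 1 and LP replicate 2 were nearly equal. Both elements had both HP values above both LP values, as did 78.5% of shared non-promoter regions, and limma called 0 of the 2, against 8.56% of those regions, with 1 of the 2 at an unadjusted p under 0.05. Replicates 1 and 2 gave 0.48 and 1.84 at -8.0 kb and 0.95 and 0.99 at -15.4 kb.

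A comparison of non-promoter with promoter acetylation within a library does not depend on how the library was scaled. At Gpnmb the mean log2 level of the 2 upstream elements minus that of the promoter was -2.13 and -0.96 (LP) against -1.45 and -1.53 (HP). The LP values enclosed the HP values. The HP minus LP difference was 0.06 (exact permutation p = 1, smallest possible 0.333), so no shift between promoter and upstream elements was detected with 2 libraries a group. Over the genome, the median log2 ratio was 0.90 at shared promoter regions and 1.06 at shared non-promoter regions.

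Inside the Gpnmb gene, LP replicate 1 had few peaks. The intron 2 region chr6:49042223-49044479 was called in LP replicate 2 at 1.30 and in HP at 1.65 and 2.67, and not in LP replicate 1. It counts as promoter through a retained-intron transcript that starts at 49047424, as do 3 further intronic regions and chr6:49049329-49050263 in intron 6. That last region was called in both HP and neither LP library, at 0.784 and 1.33. So were 2 regions at Gpnmb exons, chr6:49056132-49056422 at 1.13 and 0.912 and chr6:49057061-49057458 at 1.57 and 1.61. Across the 4 windows 6 regions were missed in LP replicate 1 alone, 2 in LP replicate 2 alone, 1 in HP replicate 2 alone and 0 in HP replicate 1 alone. The next gene, Malsu1, a mitochondrial ribosome assembly factor, was at 9.16 and 8.21 (LP) against 8.97 and 16.8 (HP) (log2 ratio 0.50, adjusted p = 0.409 by limma), and its groups overlapped.

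Gpr143 was the member with the lowest ratio. Its promoter region, chrX:152781785-152782515 (731 bp), was at 1.83 and 1.56 (LP) against 1.13 and 3.72 (HP), from 21, 24, 13 and 53 fragments. The groups overlapped, since HP replicate 1 was the lowest library and HP replicate 2 the highest. The 95% Poisson intervals of the fragment counts were 13.0 to 32.1 and 15.4 to 35.7 in LP, and 6.92 to 22.2 and 39.7 to 69.3 in HP, so the HP replicates differed by more than counting error, the only error these intervals cover. The log2 ratio was 0.28 (95% interval -0.79 to 1.34) with adjusted p = 0.635 (limma), and -0.73 after centring, with 4.25% of all regions below it. Replicate 1 gave -0.69 and replicate 2 gave 1.25, and the ratio was -0.58 without HP replicate 2.

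The Gpr143 promoter peak was narrow, covering 574 and 371 bp (LP) against 503 and 649 bp (HP). The gene (chrX:152781921-152808646, plus strand) is 26726 bp long, and its window held 2 non-promoter regions, each called in 1 library with 6 and 5 fragments. The promoter of the neighbouring gene Shroom2, an actin-binding protein, was at 1.05 and 1.63 (LP) against 1.74 and 3.93 (HP), a log2 ratio of 1.00 with adjusted p = 0.153 (limma). Relative to the Gpr143 promoter it stood at 0.571 and 1.04 (LP) against 1.54 and 1.06 (HP), a log2 difference of 0.72 (exact permutation p = 0.333, the smallest possible).

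**Figure D4:**
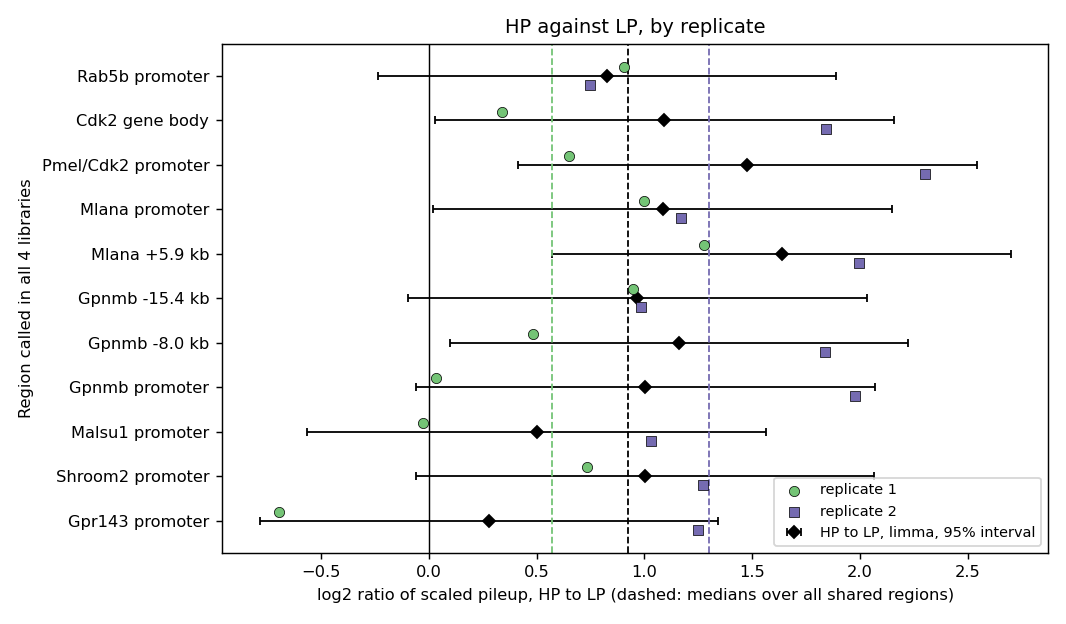
Log2 ratio of scaled pileup, HP to LP, for the 11 shared regions. Diamonds give the limma estimate with its 95% interval, circles replicate 1 and squares replicate 2, and dashed lines give the medians over all shared regions, 0.92 for the estimate, 0.57 for replicate 1 and 1.30 for replicate 2. The Mlana intron 2 element, at +5.9 kb, lies highest and the Gpr143 promoter lowest, and all 11 intervals include the median of 0.92.

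Regions called in both HP and neither LP library numbered 5 of 72 (6.94%), against 3.94% of all regions, and 0 were called in both LP and neither HP library, against 0.249%. They comprised 2 of 26 promoter regions, against 4.87% of all promoter regions, and 3 of 46 non-promoter regions, against 3.58%. Pmel had 2 and Gpnmb had 3. Most regions, 44 of 72 (61.1%), were called in 1 library, against 81.7% of all regions, and these fell 5 and 9 (LP) against 13 and 17 (HP). In the windows of the melanin synthesis enzymes Tyr, Tyrp1 and Dct, 12.0% of 50 non-promoter and 22.2% of 27 promoter regions were called in both HP and neither LP library. In those of the ion transporters Slc45a2, Slc24a5, Oca2 and Atp7a the shares were 11.9% of 59 and 0 of 25. These shares were not tested against each other.

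By Euclidean distance of the log2 scaled pileup over the 4 libraries, the promoters most like that of Pmel were Nr4a1 (0.139) and the region shared by Anapc16 and Ascc1 (0.143) among 9208 promoter regions of protein-coding genes. For Mlana they were Hist1h3e (0.214) and Wdr63 (0.297), for Gpnmb Tpst2 (0.158) and Slmap (0.163), and for Gpr143 Il1rap (0.259) and Gm1673 (0.320). Within a distance of 0.5 lay 86 promoters for Pmel and 153 for Gpnmb, but 15 for Mlana and 12 for Gpr143.

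Ratios at other genes of melanosome formation and pigmentation were close to those of all regions. Of 40 listed genes, 34 were called at the promoter in every library, and limma called 2 higher in HP and 0 lower, against 3.1% of all promoter regions higher. All 34 ratios were above 0, as were 99.0% of all shared regions, and their median was 1.04, against 0.92. After centring the median was 0.03, against -0.09 over all shared regions, and 19 of the 34 were above 0. An unadjusted limma p under 0.05 was found at 14 of the 34, against 36.2% of all shared regions. The remaining genes had no ratio. Oca2 was called in LP replicate 1 alone (0.872), and Cd63 (1.11), Tfec and Lef1 (0.456 each) in LP replicate 2 alone. Slc45a2 and Hps6 were called in 3 libraries, LP replicate 2 and both HP. Apoe, whose product associates with PMEL fibrils as they form, rose from 0.959 and 0.912 in LP to 2.18 and 4.28 in HP (log2 ratio 1.71, limma adjusted p = 0.0489). Mlph, the melanophilin linker that ties melanosomes to myosin, rose from 1.22 and 0.977 to 2.70 and 6.17 (log2 ratio 1.90, limma adjusted p = 0.0405). With the replicate block the adjusted p was 0.0621 for Apoe and 0.0539 for Mlph, and 0 of the 34 passed. Both calls were also lost without LP replicate 1, LP replicate 2 or HP replicate 2, when limma called 0 regions in the genome. After centring the log2 ratios were 0.70 for Apoe and 0.89 for Mlph, and limma called 0 of the 12084 regions in either direction. Of the 5 genes of PMEL processing and GPR143 signalling, 4 were called in every library, and Cd63 was called only in LP replicate 2, at 1.11. Bace2, a protease that cleaves PMEL, was at 1.57 and 2.41 (LP) against 2.61 and 3.93 (HP) (log2 ratio 0.72, limma adjusted p = 0.262). Furin, a proprotein convertase, was at 10.6 and 7.43 (LP) against 13.8 and 13.3 (HP) (log2 ratio 0.61, limma adjusted p = 0.329), and Gnai3, a G protein subunit that acts with GPR143, was at 2.79 and 3.45 (LP) against 5.22 and 7.93 (HP) (log2 ratio 1.05, limma adjusted p = 0.140).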

How the data were processed

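H3K27ac ChIP-seq libraries of LP and HP cells (2 each) were analysed from peak lists. The authors trimmed reads with Trimmomatic 0.33, aligned them to mm10 with Bowtie2 2.5.1, as named in the submitters' processing notes, and ran MACS 3.0.0b1 on each library in narrow mode (q-value cutoff 0.05), with the IgG sample that shares the replicate number as control. The deposited pileup is a whole count of fragments at the summit, not scaled for depth. The deposited fold enrichment and −log10 q-value, made by the authors with MACS, served to describe or filter peaks. The score column the authors deposited, a rounded −log10 q-value from MACS, was not used. Mean fragment lengths were 167 and 217 bp (LP) against 184 and 192 bp (HP), and at most 10 fragments lay under 73.8% and 42.6% of the peaks in LP and 54.2% and 43.2% in HP.

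Peaks that overlapped by at least 1 bp were merged into regions, the highest summit pileup was divided by the fragments of the library and multiplied by 1000000, and transcripts came from GENCODE M21. limma 3.58.1 in R 4.3.3 compared log2 scaled pileups of the 12084 regions called in all 4 libraries (two-sided, Benjamini-Hochberg over all of them, adjusted p of at most 0.05). It gave every ratio the same standard error, 0.54. Replicates are paired by number, since each number has its own IgG library and equal DNA input, but the replicate differences of LP and HP correlated at 0.0153 over regions. The main model had no block. The study's read-based comparison needs alignments, which were not used here. On simulated data with 200 of 12084 regions changed at the spread of these libraries, limma recovered 0% at a log2 change of 1, 53.5% at 2 and 100% at 4. The simulation held no shift across all regions, unlike these data, where the smallest log2 ratio called was 1.68. Its recovery therefore does not give the sensitivity of the fit here. The genes named are the 4 members, genes with a TSS in their windows, every window region called in all 4 libraries or in 1 population alone, listed genes past the threshold, and the 2 nearest promoters by likeness. Rab5b, Malsu1 and Shroom2 fall under this rule. Bace2, Furin, Gnai3 and the regions called in 3 libraries were added after their values were seen. Members and lists were chosen with earlier results of these data known. Alternatives were other scalings, thresholds, promoter distances, the block, and leaving out libraries. Tools were pysam 0.24.0, scipy 1.17.1, matplotlib 3.10.9, numpy 2.4.6 and pandas 2.3.3 under Python 3.11.15.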

Additional observations from a re-analysis of the deposited data

How the results depend on the processing

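With 2 libraries a group and 7 to 256 fragments at the summits of the 11 shared regions, the smallest log2 ratio that limma called in the genome was 1.68. The sign of several ratios depended on the scaling. With each library centred on its median, log2 ratios turned negative at the promoters of Gpnmb (-0.0064), Gpr143 (-0.73), Rab5b (-0.19), Malsu1 (-0.51) and Shroom2 (-0.0083) and at the -15.4 kb Gpnmb element (-0.044). With quantile normalization they were negative at Gpr143 (-0.81), Rab5b (-0.20), Malsu1 (-0.28), Shroom2 (-0.088) and the -15.4 kb element (-0.13). Leaving out libraries or a replicate number gave log2 ratios from 0.65 to 2.30 at the Pmel promoter, 0.94 to 1.23 at Mlana, 0.032 to 1.98 at Gpnmb and -0.69 to 1.25 at Gpr143, where the ratio was -0.58 without HP replicate 2 and -0.69 without replicate 2. The Malsu1 ratio ranged from -0.030 without replicate 2 to 1.03 without replicate 1. Without HP replicate 1, calls at an adjusted p of 0.05 by limma appeared at 7 of the 11 shared regions: the promoters of Pmel (1.96), Gpnmb (1.63) and Shroom2 (1.59), the Cdk2 body region (1.47), the Mlana intron 2 element (2.54) and the -8.0 kb (1.87) and -15.4 kb (1.43) Gpnmb elements. Between 0 and 2 non-promoter regions were called, depending on the library left out. The lone HP library is then assumed to vary like LP.

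Counts of regions called in HP and not in LP moved with the number of replicates required and with the promoter definition. The promoter count of 2 became 1 with a promoter distance of 1 kb or with protein-coding starts. With a single replicate number it was 6 to 9, and the non-promoter count of 3 became 15 to 18. Counted within pairs of the same replicate number, the counts averaged 7.5 and 16.5. The replicate block left the ratios as they were and changed no other call in the windows (limma adjusted p of 0.0848 at the Pmel promoter, 0.148 at Mlana, 0.167 at Gpnmb and 0.643 at Gpr143), while the genome count of calls fell from 485 to 88. The non-promoter to promoter difference at Gpnmb was -0.57 to 0.68 with 1 replicate number and -0.22 with the mean of the summit pileups. Causes were not tested. The tally below includes counts of called non-promoter regions, of which only 2 were tested in the main setting. Most of those counts could hardly leave 0. An alternative also counts as kept when the ratio shrinks, as at the Mlana promoter, from 1.08 to 0.55 with fold enrichment. Of 118 alternatives to values that answer a comparison, 100 kept direction and side of the threshold, 7 reversed, 9 moved and 2 newly passed the threshold.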
